A study of Mus musculus with 6 samples.

Results

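Matrix proteases and their inhibitors were examined in sorted cells of mouse small cell lung tumours. The 39 genes were grouped by family, with earlier results of these data known, and do not cover the families in full. They are matrix metalloproteinases (MMPs), ADAMTS and ADAM metalloproteinases, the plasminogen activators and the urokinase receptor. The others are tissue inhibitors of metalloproteinases (TIMPs), the membrane inhibitor Reck and 3 serpins. Mmp8 and Mmp9, which neutrophils store in granules, were kept out of the group. Of the 39 genes, 36 were measured, by 73 of the 45101 probe sets, among 18193 genes in all. Serpine2, Mmp15 and Adamts2 were not analysed here.

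MMPs are zinc enzymes that are made as inactive precursors and, once activated, cut collagens, elastin, laminins and other matrix proteins. TIMPs block them by occupying the catalytic zinc, and Reck restrains them at the cell surface. ADAMTS enzymes cut proteoglycans such as aggrecan and versican, ADAM proteins release the outer parts of membrane proteins, and plasminogen activators turn plasminogen into plasmin, which degrades fibrin and activates some MMPs. In tumours many of these genes are known to be made by fibroblasts, endothelial cells and macrophages, while the membrane sheddases are made by nearly all cells.

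The arrays compared tumour-propagating cells (TPCs) with non-TPCs from the same tumours. Every mouse carried the Rb/p53/p130 triple knockout model on a mixed C57BL/6;129Sv/J background, was infected with adenovirus that carries Cre and gave tumours 6 to 7 months later, without treatment. The sources used here do not give the ages or sexes of the mice or the cell type in which Cre acted. Dissociated tumours were stained for CD24, CD44 and EpCAM, and both fractions were sorted from mice 1127, 920 and 0107, so there were 3 TPC and 3 non-TPC arrays. The sources used here do not give the gates.

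Values are log2 probe set signals made with RMA, a method that corrects background and puts all arrays on a common scale. A difference of 1 is therefore a factor of 2, and each difference is TPC minus non-TPC. Each gene was read from its brightest probe set over the 6 arrays, and no level is compared between genes because probe sets differ in brightness. The median gene lay at 6.91 and the first quartile of the arrays at 4.52 to 4.65, so levels near 5 are dim. Neuroendocrine markers, which define the tumour cells, averaged 10.08 to 10.32 in TPCs and 9.71 to 9.93 in non-TPCs (10 of 12 listed genes measured). In RNA of a sorted fraction, fewer cells of a type and less RNA per cell cannot be told apart.

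The start regions of several members show how the family is built. Mmp13, Mmp12, Mmp3, Mmp10 and Mmp7 lie in the MMP cluster of chromosome 9, with Mmp1b, Mmp1a, Mmp8, Mmp27 and Mmp20, which are no members and are not shown, between them in RefSeq. Each of the 5 had a window before an annotated start that holds the letters TGANTCA, the consensus of the AP-1 factors (FOS and JUN). The sequences below are the 100 bases before the start in RefSeq, build GRCm38.p6, with TGANTCA and the TATA box letters TATAAA in capitals. They are shown because these 5 genes share the motif while their mean differences ran from -1.18 for Mmp3 to 0.07 for Mmp10. None of these differences passed the test described below. Mmp12 and Mmp7 have 2 annotated starts, and the one with the motif is printed. Plaur is added as the sixth member with the motif and Adamts1 as a member without it whose difference was large.
Mmp13 (chr9:7272414-7272513, + strand): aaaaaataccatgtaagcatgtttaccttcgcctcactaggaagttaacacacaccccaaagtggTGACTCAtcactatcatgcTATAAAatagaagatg
Mmp12 (chr9:7347274-7347373, + strand): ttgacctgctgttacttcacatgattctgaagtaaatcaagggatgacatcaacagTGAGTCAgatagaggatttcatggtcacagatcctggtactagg
Mmp3 (chr9:7445722-7445821, + strand): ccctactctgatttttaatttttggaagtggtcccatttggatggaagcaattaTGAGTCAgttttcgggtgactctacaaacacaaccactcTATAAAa
Mmp10 (chr9:7502242-7502341, + strand): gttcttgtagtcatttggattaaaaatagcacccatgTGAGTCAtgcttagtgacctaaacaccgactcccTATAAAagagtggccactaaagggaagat
Mmp7 (chr9:7691990-7692089, + strand): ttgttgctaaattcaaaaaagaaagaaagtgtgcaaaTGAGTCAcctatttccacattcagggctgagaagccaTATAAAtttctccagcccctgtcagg
Plaur (chr7:24462383-24462482, + strand): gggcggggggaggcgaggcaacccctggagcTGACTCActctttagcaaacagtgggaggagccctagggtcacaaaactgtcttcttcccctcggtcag
Adamts1 (chr16:85803114-85803213, - strand): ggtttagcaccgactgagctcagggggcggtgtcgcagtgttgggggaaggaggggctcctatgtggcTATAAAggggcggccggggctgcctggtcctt

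The first base of the motif lay 35, 44, 46, 63 and 63 bases before the start in Mmp13, Mmp12, Mmp3, Mmp10 and Mmp7, and 69 bases before it in Plaur. RefSeq start windows were matched for 23 of the 36 measured members (26 windows), and on either strand of the 250 bases before the start 6 of these windows held TGANTCA, against 6.75% of the 32851 windows of all genes. TATAAA stood in 5 of the 26, against 12.4% of all windows, the GC box GGGCGG in 14, against 32.7%, and the ETS letters AGGAAG in 13, against 29.5%. A match describes the letters and does not show that a factor binds there.

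No member passed the test at a limma adjusted p under 0.05, in either direction. Over all genes 0.0605% were called lower and 0.0% higher in TPCs, and the adjusted p of the members ran from 0.335 to 0.999. At an unadjusted p under 0.05 there were 5 members lower in TPCs (Plat, Adamts1, Adamts10, Serpinh1 and Timp1), which is 13.9% against 4.35% of all genes, and 0 higher, against 2.12%. In the fit that compares the fractions within each animal (the mouse as a replicate block), 0 members were called, against 0.0715% of all genes, and the smallest limma adjusted p was 0.139, for Timp3.

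Negative differences were more frequent than positive ones: in mice 1127, 920 and 0107, TPCs were lower for 26, 24 and 24 of the 36 members, beside 7409, 7668 and 9751 of the 18193 genes. The median difference of the members was -0.24 against 0.04 over all genes, and it was -0.56, -0.07 and -0.18 in mice 1127, 920 and 0107. In TPCs of all 3 mice 13 of the 36 members (36.1%) were lower, against 13.8% of all genes, and 2 (5.56%) were higher in all 3, against 19.7%. In 10 members every TPC array lay below every non-TPC array (27.8%, against 5.91% of all genes), and in 1, Mmp19, every TPC array lay above (2.78%, against 6.71%). A mean difference of -1 or lower was found for 8 members (22.2%, against 2.74%) and one of 1 or higher for 0, against 0.22%. These shares describe the members, and no test of the list was made. The MMP, ADAMTS and ADAM genes measured outside the list had median differences of 0.06, 0.09 and -0.04. Most of them were dim, which limits this comparison: 0 of 5, 1 of 12 and 2 of 8 lay above the median gene, beside 13 of the 36 members.

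**Figure D1:**
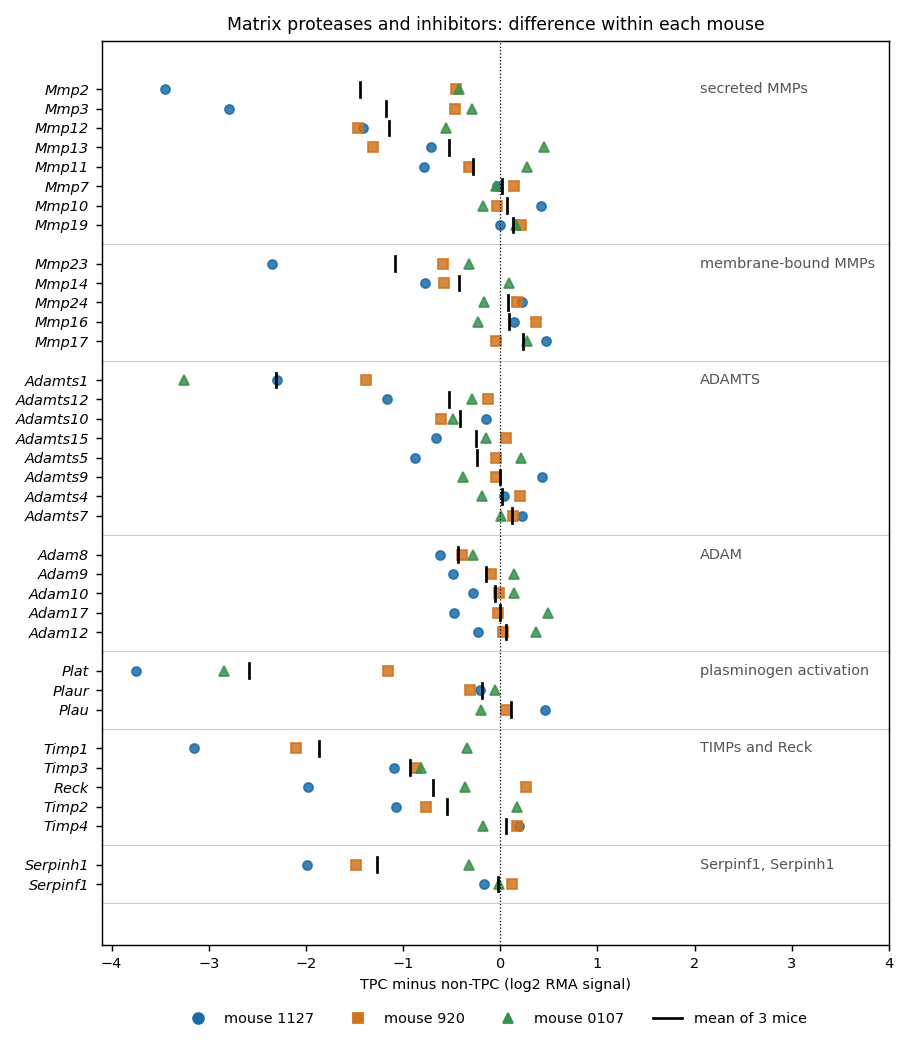
Difference between TPC and non-TPC in each mouse (symbols) and its mean (bars) for the 36 measured members, on a log2 scale, by family. The means run from -2.58 for Plat to 0.23 for Mmp17, and the points left of -2 belong to all 3 mice for different genes.

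Among the secreted MMPs, 3 of 8 were lower in TPCs of all 3 mice and 1 was higher, against 13.8% and 19.7% of all genes. The median difference was -0.40. Mmp2, the gelatinase that cuts denatured and basement membrane collagen, stood at 6.68, 6.80 and 6.76 in TPCs of mice 1127, 920 and 0107 and at 10.13, 7.25 and 7.18 in their non-TPCs. The groups did not overlap, but only the non-TPCs of mouse 1127 were far above the TPCs. Its mean difference was -1.44 (SE 0.76, limma adjusted p = 0.848), and it was -0.44 without mouse 1127. A second Mmp2 probe set gave the same pattern, with -3.33, -0.32 and -0.30 in the 3 mice.

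Mmp3, stromelysin-1, which cuts many matrix proteins and activates other MMPs, read 4.87, 4.56 and 4.82 in TPCs and 7.66, 5.03 and 5.11 in non-TPCs, in the same order of mice. As with Mmp2, the array that stood out was the non-TPC array of mouse 1127, and the other 5 were dim. The mean difference was -1.18 (SE 0.68, limma adjusted p = 0.873) and -0.37 without that mouse.

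Mmp12, the macrophage metalloelastase, followed a different order. It read 6.50, 7.71 and 6.22 in TPCs and 7.91, 9.18 and 6.78 in non-TPCs. Mouse 920 was highest in both fractions, and its TPCs were above the non-TPCs of mouse 0107, so the groups overlapped although each pair went the same way, by -1.41, -1.46 and -0.56. The mean difference was -1.15 (SE 0.65, limma adjusted p = 0.872), and the replicate block gave an SE of 0.22 (adjusted p = 0.217). Over 15 alternatives the limma adjusted p of Mmp12 lay between 0.217 and 1.0. Leaving out the non-TPCs of mouse 920 gave -0.54, and leaving out those of mouse 0107 gave -1.74.

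The remaining secreted MMPs differed little or unevenly. Mmp13, a collagenase, was dim on all arrays, from 3.31 to 5.48, and its highest value was that of the non-TPCs of mouse 920, with differences of -0.71, -1.31 and 0.45. Mmp11 (-0.28), Mmp10 (0.07), Mmp7 (0.02) and Mmp19 (0.13) had mean differences under 0.5 in size. The dimmer probe set of Mmp19 went the other way, by -0.11. For Mmp7, the matrilysin of epithelial cells, the 95% interval of the difference was -0.34 to 0.38, and for Mmp10 it was -0.44 to 0.57. Beside the shared motif shown above, Mmp3 and Mmp12 were lower in TPCs of 3 mice, Mmp13 of 2, and Mmp10 and Mmp7 also of 2, with differences of -0.04 and -0.18 and of -0.03 and -0.05.

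Of 5 measured membrane-bound MMPs, Mmp23 was the only one lower in all 3 mice. This type II membrane protein read 6.26, 6.60 and 6.38 in TPCs of mice 1127, 920 and 0107 and 8.61, 7.19 and 6.70 in non-TPCs. The groups did not overlap, and once more the non-TPCs of mouse 1127 were highest. The mean difference was -1.09 (SE 0.47, limma adjusted p = 0.773) and -0.46 without mouse 1127. A second Mmp23 probe set, nearly as bright (mean level 6.76 against 6.96), differed by -2.01, -0.54 and 0.01, so there the fractions overlapped.

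Mmp14, which sits in the membrane and activates the Mmp2 precursor together with Timp2, read 7.06, 7.20 and 7.18 in TPCs and 7.84, 7.79 and 7.09 in non-TPCs. It was lower in TPCs of mice 1127 and 920 and not of 0107, with a mean of -0.42 (SE 0.22, limma adjusted p = 0.847). Its 2 dimmer probe sets had mean differences of 0.19 and 0.21. Mmp16, Mmp17, a lipid-anchored member, and Mmp24, which is known from neurons, differed by 0.09, 0.23 and 0.08.

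The ADAMTS group held the member with the second largest difference. Adamts1, which cuts versican and aggrecan, read 6.20, 5.63 and 5.78 in TPCs and 8.49, 7.01 and 9.03 in non-TPCs of mice 1127, 920 and 0107. Every non-TPC array was above every TPC array, and here mouse 0107 had the highest non-TPC value. The mean difference was -2.31 (SE 0.50, a 4.95-fold lower signal, limma adjusted p = 0.365). When the non-TPC array of mouse 920 was left out, which keeps that mouse's TPC array alone, it was -2.89 and passed (limma adjusted p = 0.0336, against a range of 0.0336 to 1.0 over 15 alternatives).

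Adamts5, an aggrecanase, read 8.65, 8.48 and 8.61 in TPCs and 9.53, 8.53 and 8.40 in non-TPCs, and the groups overlapped (mean -0.24, SE 0.30, limma adjusted p = 0.925). Adamts10, which binds fibrillin microfibrils, did not overlap between the fractions, with 6.22 to 6.43 in TPCs and 6.59 to 6.83 in non-TPCs. Its mean difference was -0.41 (SE 0.14, limma adjusted p = 0.629). A dimmer Adamts10 probe set differed by 0.40, 0.05 and -0.07, and the mean of both probe sets differed by -0.14. Adamts12 was dim and differed by -1.17, -0.12 and -0.29, while Adamts7 was higher in all 3 mice, by 0.22, 0.13 and 0.01, and also dim. Adamts15, Adamts4 and Adamts9 had means of -0.25, 0.02 and 0.00.

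The ADAM sheddases had nearly level means. Adam10, which releases the Notch extracellular part and many other ectodomains, read 10.86, 11.17 and 10.52 in TPCs and 11.15, 11.19 and 10.38 in non-TPCs. The order of mice was the same in both fractions. The mean difference was -0.05, with a 95% interval of -0.71 to 0.61 in the fit without the block. Its SE was 0.28 in that fit and 0.15 with the replicate block. With the arrays centred on their medians it was 0.01, so its sign is not settled. Adam17, which sheds tumour necrosis factor, and Adam9 differed by 0.00 and -0.15, with intervals of -0.73 to 0.72 and -0.59 to 0.29. All 3 were above the median gene on the array.

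Adam8, known from leukocytes, was the ADAM gene lower in all 3 mice. It lay between 6.02 and 6.28 in TPCs and between 6.30 and 6.91 in non-TPCs, without overlap, and differed by -0.43 (SE 0.19, limma adjusted p = 0.782). Adam12 was dim, at 5.29 to 5.97 on all arrays, and differed by 0.06.

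Plat, tissue plasminogen activator, had the largest difference of all members. It read 4.94, 5.25 and 4.76 in TPCs of mice 1127, 920 and 0107 and 8.69, 6.41 and 7.61 in non-TPCs. All TPC arrays were dim and all non-TPC arrays lay above them. The mean difference was -2.58 (SE 0.54, a 5.99-fold lower signal, limma adjusted p = 0.335, and 0.215 with the replicate block). Over 14 alternatives the limma adjusted p of Plat lay between 0.061 and 1.0. A second, dim Plat probe set differed by -0.23.

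Plau, the urokinase-type activator, was dim in both fractions, from 4.36 to 5.02, and differed by 0.11 with a 95% interval of -0.41 to 0.63. Plaur, the urokinase receptor, read 6.92, 6.82 and 7.02 in TPCs and 7.12, 7.13 and 7.08 in non-TPCs. These groups did not overlap, and the difference was small, -0.19 (SE 0.12, limma adjusted p = 0.877). The large difference measured in this group was therefore that of Plat. A difference of Plau could be missed, since its second probe set was dim too (mean level 3.64).

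Of the 5 measured inhibitors, 2 were lower in TPCs of all 3 mice, against 13.8% of all genes, and the median difference was -0.69. Timp1, a soluble inhibitor, read 5.46, 5.17 and 5.18 in TPCs and 8.62, 7.27 and 5.52 in non-TPCs of mice 1127, 920 and 0107. The fractions did not overlap, but in mouse 0107 the difference was only -0.34. The mean difference was -1.87 (SE 0.71, a 3.65-fold lower signal, limma adjusted p = 0.729). With the non-TPCs of mouse 1127 left out it was -1.13.

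Timp3, the inhibitor that binds to the matrix and also blocks Adam17, read 8.31, 9.22 and 7.75 in TPCs and 9.41, 10.09 and 8.57 in non-TPCs. The groups overlapped because mouse 920 was highest and mouse 0107 lowest in both fractions, yet each pair differed by a similar amount, -1.10, -0.86 and -0.81. Its mean difference was -0.92, with an SE of 0.49 in the comparison of group means (limma adjusted p = 0.849) and of 0.14 with the replicate block (adjusted p = 0.139). Over 15 alternatives the limma adjusted p of Timp3 lay between 0.139 and 1.0. With the non-TPCs of mouse 920 left out the mean was -0.56. A second bright Timp3 probe set differed by -1.14, -1.06 and -0.52, and the dimmer ones had means of -0.40 and -0.33.

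Timp2 read 10.13, 9.46 and 9.34 in TPCs and 11.20, 10.22 and 9.16 in non-TPCs. It was lower in TPCs of mice 1127 and 920 and slightly higher in mouse 0107, with a mean of -0.55 (SE 0.51, limma adjusted p = 0.901). It was -0.05 with the non-TPCs of mouse 1127 left out and -0.13 with all probe sets averaged. Reck read 5.88, 6.36 and 5.95 in TPCs and 7.86, 6.10 and 6.31 in non-TPCs, so its mean of -0.69 came from mouse 1127 (-0.05 without that mouse). Timp4 was dim and differed by 0.06.

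Of the serpins, Serpinh1 is a chaperone of procollagen in the endoplasmic reticulum and not a protease inhibitor. It read 6.43, 5.81 and 6.30 in TPCs and 8.41, 7.30 and 6.62 in non-TPCs, without overlap, and differed by -1.26 (SE 0.45, limma adjusted p = 0.672). Leaving out the non-TPCs of mouse 1127 gave -0.78. Serpinf1, pigment epithelium-derived factor, differed by -0.02 in its brightest probe set.

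**Figure D2:**
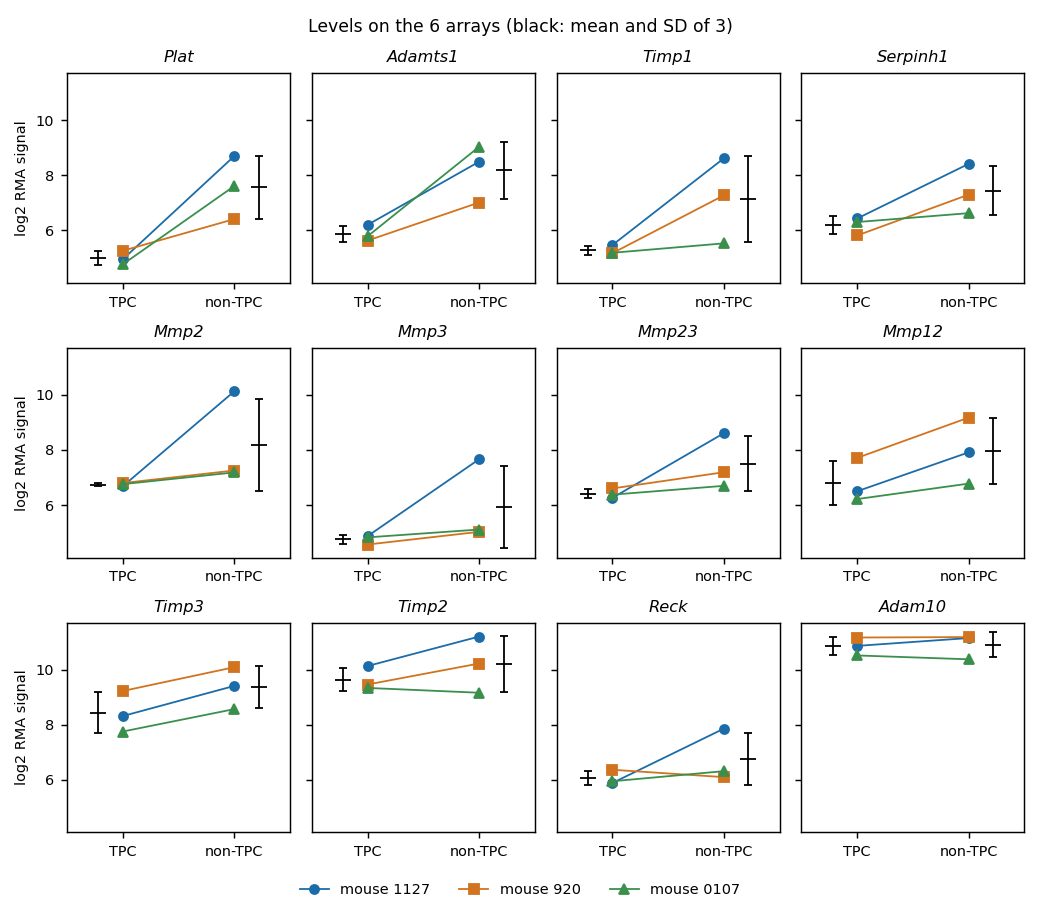
Log2 signal of 12 members on the 6 arrays, with lines joining the TPC and non-TPC arrays of a mouse and the mean and SD of each fraction (n = 3) in black. Mmp2, Mmp3, Mmp23 and Reck stand high in the non-TPCs of mouse 1127, Adamts1 and Plat in those of mice 1127 and 0107, and the 3 lines of Timp3 run parallel.

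The choice of probe set mattered for a few members. Serpinf1 is the clearest case: its brightest probe set read 6.61 to 6.86 on all 6 arrays, while the other read 3.86, 3.80 and 4.27 in TPCs and 8.82, 4.94 and 4.35 in non-TPCs, with differences of -4.96, -1.14 and -0.09. Adamts9 had a mean of 0.00 in its brightest probe set and of -1.01 and -0.56 in its other probe sets, both lower in all 3 mice, with the second reading 5.65, 5.25 and 6.57 in non-TPCs. The dimmer probe set of Adamts4 differed by -1.35, 0.03 and -0.76, and that of Serpinh1 by -3.33, -2.10 and 0.00. When each of the 34945 probe sets with 1 gene was tested separately, 0.0401% were called lower, 0.0% higher, and 0 of the 73 member probe sets were called. In that fit the limma adjusted p was 0.734 and 0.718 for the other Adamts9 probe sets. Of the 36 members, 21 had over 1 probe set.

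**Figure D3:**
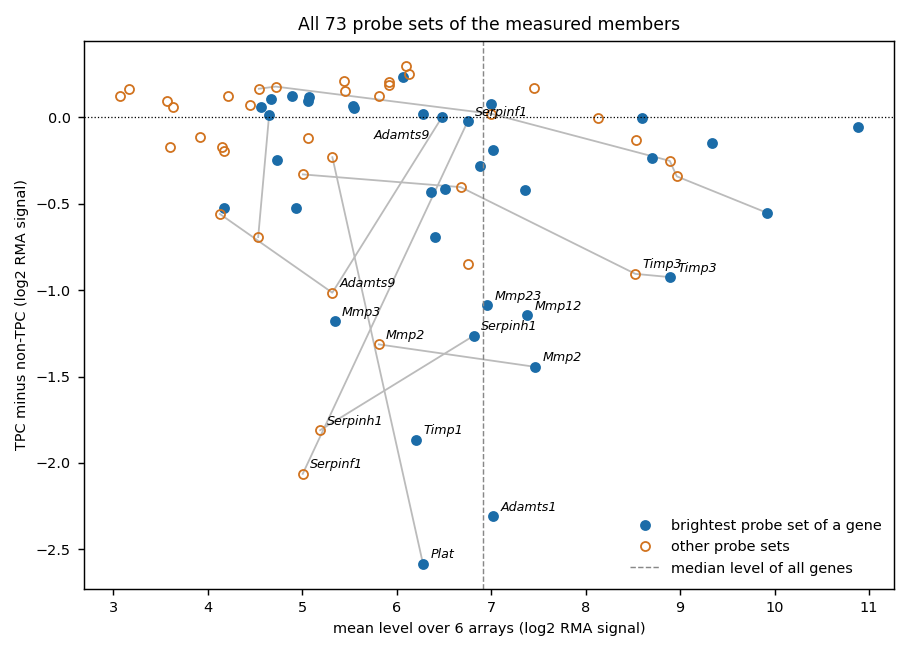
Mean difference of each of the 73 member probe sets against its mean level, both in log2 units, with the brightest probe set of a gene filled and the others open. Grey lines join the probe sets of 8 genes. For Serpinf1 and Adamts9 the brightest lies near 0 and the dimmer ones lie lower. The Mmp2 probe sets have similar differences (-1.44 and -1.31) at unlike levels (7.47 and 5.81), while the brighter Timp3 ones lie together.

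The order of the mice can be set beside the markers of other cell types, most of which were lower in TPCs too. Over all genes, 13.8% were lower in TPCs of all 3 mice. Fibroblast markers (10 of 10 measured, 6 of them lower in all 3 mice) had mean levels of 5.87 to 6.04 in TPCs and 6.90 to 9.28 in non-TPCs, with mean differences of -3.23, -1.36 and -0.98 in mice 1127, 920 and 0107. In mouse 1127 their collagens Col1a1, Col1a2, Col3a1 and Col5a1 differed by -1.06, -5.19, -7.87 and -0.93, and Fbln1 by 0.41. Mmp2, Mmp3, Mmp23, Reck and Plat had their largest difference in that mouse as well, and so did Timp1 and Serpinh1, which followed in mouse 920. The pericyte and smooth muscle, mesothelial, neutrophil and general leukocyte markers also had their largest mean difference in mouse 1127.

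Endothelial markers (9 of 9 measured, 4 lower in all 3 mice) averaged 5.59 to 5.62 in TPCs and 5.72 to 6.94 in non-TPCs. Their mean differences were -0.81, -0.11 and -1.35, the largest in mouse 0107. There the single markers ran from -3.83 for Cldn5 to 0.50 for Vwf, with Pecam1 at -0.18 and Tie1 at -0.26. Adamts1 and Plat had smaller differences in mouse 920 than in the other mice. So did the means of the endothelial and of the neutrophil markers. Lum and Pdgfra of the fibroblast list did too, while the mean of that list was smallest in size in mouse 0107. The alveolar type 1 marker Cav1 was also smallest in size in mouse 920. The mean of its list was instead largest in size there, at -1.46, -1.71 and -1.38 in mice 1127, 920 and 0107. The second Adamts9 probe set differed by -1.74 in mouse 0107. Pericyte and smooth muscle markers (8 of 8 measured, 4 lower in all 3 mice) averaged 5.58 to 5.67 in TPCs and 5.86 to 7.04 in non-TPCs, with mean differences of -1.37, -0.54 and -0.23.

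Macrophage and monocyte markers (9 of 10 measured, 8 lower in all 3 mice) averaged 6.63 to 7.28 in TPCs and 7.48 to 8.23 in non-TPCs, and mouse 920 was highest in both fractions, as it was for Mmp12 and also for the general leukocyte, alveolar type 2, alveolar type 1 and club cell markers. Their mean differences were -0.94, -0.94 and -0.65. General leukocyte markers (8 of 8 measured) differed by -1.58, -1.0 and -0.76, and neutrophil markers (8 of 10 measured) by -1.20, -0.75 and -1.11. Mesothelial (7 of 7 measured), alveolar type 2 (8 of 9), alveolar type 1 (7 of 7) and club cell markers (6 of 6) had mean differences of -1.23, -1.43, -1.52 and -1.61. In mice 1127, 920 and 0107 the mesothelial markers differed by -1.39, -1.38 and -0.93. Neuroendocrine markers differed by 0.39, 0.17 and 0.43. The part of these cells in the differences of the proteases was not tested, and 3 mice do not allow a correlation.

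**Figure D4:**
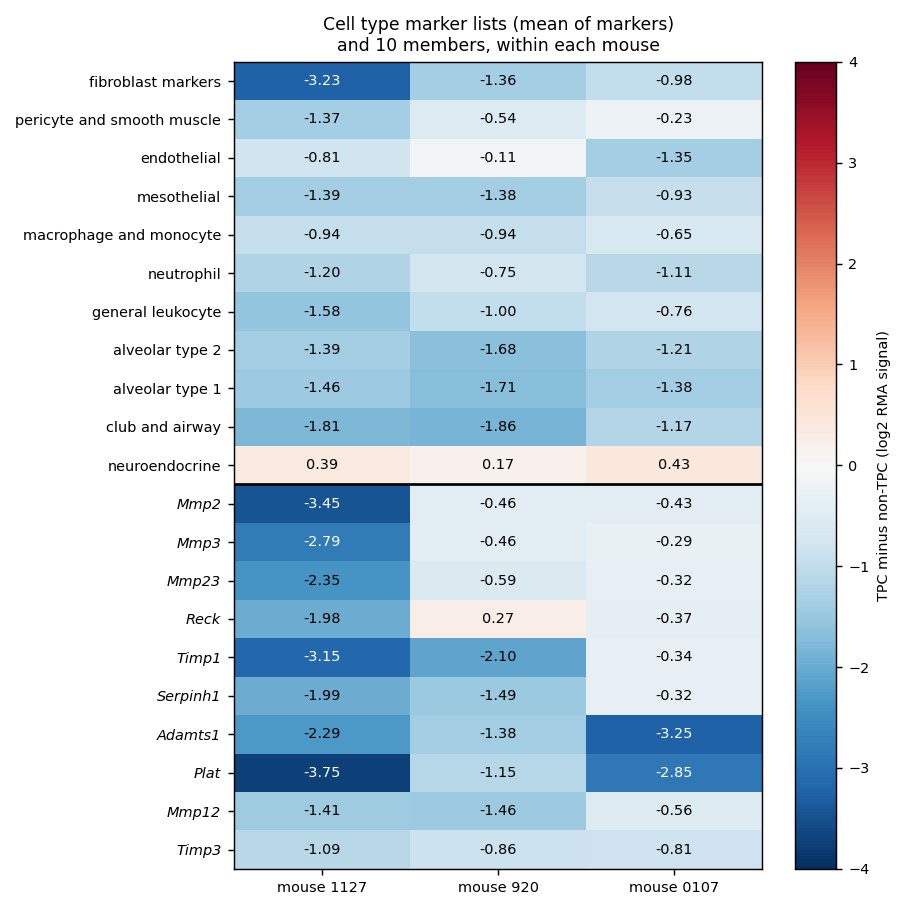
Difference between TPC and non-TPC in each mouse for 11 cell type marker lists (mean of the markers, upper rows) and 10 members (lower rows), in log2 units, blue where TPCs are lower. Mmp2, Mmp3 and Mmp23 are deepest in mouse 1127. So are the rows of fibroblast, pericyte and smooth muscle, mesothelial, neutrophil and general leukocyte markers, while the endothelial row is deepest in mouse 0107. Plat is deepest in mouse 1127 and Adamts1 in mouse 0107.

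The wider set of matrix proteolysis genes held 68 measured genes of 77 listed, and 0 of them passed the test, against 0.0605% of all genes called lower. With the replicate block 1 passed, against 0.0715% of all genes, and when the mouse entered as a random block 2 did, against 0.214%. Their median difference was -0.17. In TPCs of all 3 mice 24 of the 68 were lower and 7 higher, against 13.8% and 19.7% of all genes. Cathepsins and cystatins, the lysosomal proteases and their inhibitors, had a median of -0.45 over 12 genes. Of these, 6 were lower and 0 higher in all 3 mice, against the same 13.8% and 19.7% of all genes. Ctsh, an aminopeptidase abundant in alveolar type 2 cells, differed by -1.99, and Ctsc, which activates neutrophil serine proteases, by -1.57. Without the block the limma adjusted p was 0.557 or higher in this list. With the replicate block it was 0.0812 for Ctsh and 0.0983 for Ctsc.

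Among genes of procollagen processing and cell surface cleavage, 12 were measured with a median of -0.87. Htra1 read 3.97, 4.67 and 4.22 in TPCs and 8.67, 6.22 and 5.68 in non-TPCs, and Dpp4, a surface dipeptidase, differed by -1.75, both lower in all 3 mice. Fap, the fibroblast activation protease, differed by -4.26, -1.18 and -0.34. The fibroblast, pericyte and smooth muscle, general leukocyte and mesothelial markers had the same order of mice. Mmp2 was also largest in mouse 1127 but nearly level in mice 920 and 0107 (-0.46 and -0.43). Tll1, a tolloid-like protease, was higher in all 3 mice, by 0.34, 0.27 and 0.66.

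In the plasminogen system, Anxa2 and S100a10, which together form a receptor for plasminogen and Plat at the cell surface, showed steady differences. Anxa2 read 9.27, 9.35 and 8.70 in TPCs and 11.11, 11.34 and 10.65 in non-TPCs, a difference of -1.92 (SE 0.25). It did not pass without the block (limma adjusted p = 0.105) and passed with it (0.0333). S100a10 differed by -1.56 (-1.47, -1.56 and -1.66 in the 3 mice), with a limma adjusted p of 0.128 without the block and 0.0534 with it, and of 0.0398 in the random block fit, where Anxa2 had 0.0353. Serpinb1a, an inhibitor of neutrophil proteases, differed by -1.53, Slpi, an inhibitor of neutrophil elastase, by -0.94, and Serping1, the inhibitor of complement C1, by -4.72, -2.33 and -0.57. Spint2, an inhibitor of epithelial surface proteases, went the other way and was higher in all 3 mice, by 0.63, 0.23 and 1.74. Other MMPs (5 of 9 measured, median 0.06), ADAMTS genes (12 of 15, 0.09) and ADAM genes (8 of 8, -0.04) had medians near 0. Of these measured genes 0, 1 and 2 lay above the median gene, so most were dim. Mmp8 differed by -0.66 and Mmp9, dim on all arrays, by -0.11.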

How the data were processed

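RNA of 6 sorted samples was measured on 1-colour Affymetrix arrays after whole-transcript labelling with biotin, per the labels' protocols. The kit they name is for whole transcripts, whereas the probe sets are those of a 3′ expression array, and the effect of this on the signals was not tested. The authors' deposited values are log2 signals, and the submitters' processing notes name RMA. The log2 scale was read from their range, 2.70 to 14.81. No source used here gives the RMA version or chip definition. An array has no read depth, so the number of arrays limits the precision.

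Probe sets with 1 gene symbol (34945 of 45101) were named by GEO's platform annotation, with symbols updated through Entrez identifiers to RefSeq (GRCm38.p6). Groups and mice came from the sample titles. The test was limma 3.58.1 in R 4.3.3 with the fraction as the only term, two-sided, with Benjamini-Hochberg adjustment over 18193 genes. The replicate block is the mouse, since both fractions of an animal are paired, and their deviations correlated at 0.302, 0.462 and 0.357 across genes. The procedure was tested on data simulated for TPC against non-TPC over 18193 genes. Of genes changed by 1, 2 and 3 it called 42.8%, 82.8% and 91.6%, and 9.6%, 70.0% and 86.4% with the block. The changed genes were drawn from all genes, with equal spread in both fractions. Mmp2 had an SD of 0.06 in TPCs and 1.68 in non-TPCs, and Plat of 0.25 and 1.14. These rates therefore do not apply to such members.

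All arrays are given for members with a mean difference of at least 1 in size, a difference of at least 1.5 in 1 mouse or the brightest signal of their family, and up to 4 related genes per list were named by the smallest p. Timp3, the second Serpinf1 probe set, Spint2, Fap, Mmp9 and the markers of other cell types given by name were chosen after their values were seen. The members and lists were chosen with earlier results of these data known. Alternatives were the mouse as a block, other variance models, a filter on dim genes, other probe sets, centring, and leaving out mice or arrays. Testing each probe set separately was added after the data were seen.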

Additional observations from a re-analysis of the deposited data

How the results depend on the processing

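The median difference of the members, -0.24, stayed negative under the alternatives tried. It ran from -0.42 with genes above the median level, which kept only 13 of the 36 members, to -0.09 without mouse 1127. The number of members called stayed at 0 with the replicate block, the random block, the trend, the filter, the probe sets and the centring, and was 0 to 1 when mice or arrays were left out. The number of genes called lower, 11, was 13 with the replicate block, 39 with the mouse as a random block, 4 with the mean of all probe sets per gene, and 0 to 84 when mice or arrays were left out. In data simulated for this comparison, with equal spread in both fractions, 42.8% of changes of 1 (log2) were called, and 9.6% with the replicate block. Signs turned among members whose reported difference lay between -0.52 (Mmp13) and 0.11 (Plau). With the mean of all probe sets the difference was 0.162 for Adam10, -0.338 for Adamts4, -0.524 for Adamts9, -0.027 for Mmp16 and -0.056 for Timp4. With centred arrays it was 0.006 for Adam10, 0.056 for Adam17 and 0.037 for Serpinf1. When mice or arrays were left out, the ranges that crossed 0 were -0.317 to 0.113 (Adam10), -0.142 to 0.197 (Adam12), -0.342 to 0.235 (Adam17), -0.292 to 0.023 (Adam9), -0.117 to 0.133 (Adamts4), -0.462 to 0.117 (Adamts5), -0.214 to 0.192 (Adamts9), -0.147 to 0.231 (Mmp10), -0.557 to 0.056 (Mmp11), -1.082 to 0.00 (Mmp13), -0.045 to 0.299 (Mmp16), -0.012 to 0.20 (Mmp24), -0.058 to 0.123 (Mmp7), -0.07 to 0.263 (Plau), -0.101 to 0.052 (Serpinf1) and -0.007 to 0.18 (Timp4). The cause of these turns was not tested. Of 517 member differences under 15 alternatives, 465 kept sign and call, 51 turned sign and 1 (Adamts1) passed.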
